A study of Mus musculus with 8 samples.

Results

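Neurotransmitter receptor genes encode the proteins with which neurons sense glutamate, GABA, glycine and acetylcholine. They were taken from a table of 16096 genes by their symbols, which had to name an AMPA (Gria), kainate (Grik), delta (Grid), NMDA (Grin) or metabotropic (Grm) glutamate receptor, a GABA-A (Gabr) or GABA-B (Gabbr) receptor, a glycine receptor (Glra, Glrb), or a nicotinic (Chrn) or muscarinic (Chrm) acetylcholine receptor. The pattern found 55 genes, of which 25 belong to glutamate, 15 to GABA, 3 to glycine and 12 to acetylcholine. Of these 55, 53 had enough reads to be tested. Gabrd, a GABA-A delta subunit, and Grin2a, an NMDA receptor subunit, did not.

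The tissue was embryonic peripheral retina, dissected on embryonic day 16.5 from mice on a C57BL/6 background. Both groups carried the Pax6alpha-Cre driver, a retinal Cre transgene that is active in the peripheral retina. In the 4 libraries labelled as conditional knockout (cKO) it was combined with Ezh2fl/null, which is 1 Ezh2 allele that Cre can delete and 1 null allele. In the 4 control libraries it was combined with Ezh2fl/+, which is 1 deletable and 1 wild-type allele. Ezh2 encodes the methyltransferase of Polycomb repressive complex 2 (PRC2), which places repressive methyl marks on lysine 27 of histone H3. The controls thus also carry Cre and may lose 1 allele where it acts, and any cell without active Cre holds a null allele in the cKO group alone. The comparison asks which transcripts differ between these genotypes. The labels call the replicates separate samples and name no embryo or litter, so a p-value here covers only the spread among the sequenced samples, which may be technical.

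Receptors for transmitters fall into ion channels built from several subunits, which act within milliseconds, and G protein-coupled receptors, which act more slowly through second messengers. AMPA, kainate, delta, NMDA, GABA-A, glycine and nicotinic receptors are of the first kind, and metabotropic glutamate, GABA-B and muscarinic receptors of the second. The choice of subunits sets a channel's ion selectivity, kinetics and sensitivity to drugs. In the retina glutamate carries the signal from photoreceptors through bipolar cells to ganglion cells, horizontal and amacrine cells release GABA or glycine, and acetylcholine from starburst amacrine cells drives the early waves of activity that pass through the retina before vision. At this embryonic stage ganglion cells, amacrine cells, horizontal cells and cones are being born, progenitors still divide, and most synapses have yet to form.

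Polycomb repressive complex 2 is best known at promoters rich in the dinucleotide CG, so the stretches before the starts of 5 called genes are printed with each CG in capitals. RefSeq promoter windows (GRCm38.p6, the assembly also called mm10) matched 38 of the 55 genes, with 46 windows. The printed stretches are the 250 bases before a RefSeq start, 5′ to 3′ on the gene's strand, and hold no annotated exon. Chrm4, Grik3 and Gabra2 were higher in the labelled-cKO libraries, and Grm7 and Gabra3 lower.
Chrm4, chr2:91921939-91922188, plus strand: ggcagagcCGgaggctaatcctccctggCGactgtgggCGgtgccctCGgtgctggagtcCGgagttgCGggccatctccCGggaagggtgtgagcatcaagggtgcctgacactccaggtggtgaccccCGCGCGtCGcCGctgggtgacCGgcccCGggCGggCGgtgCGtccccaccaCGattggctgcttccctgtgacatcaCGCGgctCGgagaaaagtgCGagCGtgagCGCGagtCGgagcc
Grik3, chr4:125490446-125490695, plus strand: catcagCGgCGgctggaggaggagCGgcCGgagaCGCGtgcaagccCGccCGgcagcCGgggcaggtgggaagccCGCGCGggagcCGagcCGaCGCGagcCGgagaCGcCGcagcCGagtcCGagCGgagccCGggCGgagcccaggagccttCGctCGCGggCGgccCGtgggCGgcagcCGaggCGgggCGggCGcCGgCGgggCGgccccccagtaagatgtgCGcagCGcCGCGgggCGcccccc
Gabra2, chr5:71095850-71096099, minus strand: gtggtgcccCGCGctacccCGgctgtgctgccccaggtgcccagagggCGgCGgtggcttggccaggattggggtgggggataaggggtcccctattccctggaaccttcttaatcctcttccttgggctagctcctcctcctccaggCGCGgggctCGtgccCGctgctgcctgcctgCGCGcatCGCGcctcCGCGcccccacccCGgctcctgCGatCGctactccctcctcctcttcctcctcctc
Grm7, chr6:110645262-110645511, plus strand: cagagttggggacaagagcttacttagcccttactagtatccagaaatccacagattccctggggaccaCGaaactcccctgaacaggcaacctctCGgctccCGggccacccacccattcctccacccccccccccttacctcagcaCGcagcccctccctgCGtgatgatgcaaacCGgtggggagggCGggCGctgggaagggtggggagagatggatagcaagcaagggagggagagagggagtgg
Gabra3, chrX:72656920-72657169, minus strand: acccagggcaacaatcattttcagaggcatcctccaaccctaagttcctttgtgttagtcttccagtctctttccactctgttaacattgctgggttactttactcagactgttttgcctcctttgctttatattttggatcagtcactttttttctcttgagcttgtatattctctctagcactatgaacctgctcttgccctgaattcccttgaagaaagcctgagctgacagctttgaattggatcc
These stretches hold 26 CG in Chrm4, 42 in Grik3, 18 in Gabra2, 8 in Grm7 and 0 in Gabra3. They are examples and leave out other called genes with a window.

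Over whole windows, which run on for a short way past the start, the median was 25 CG for the 11 higher genes with a window (16 windows), 16 for the 24 genes not called (25 windows) and 10 for the 3 lower genes (5 windows). All 32851 windows of the table had a median of 7. Windows with 20 or more CG made up 56.2% of the windows of higher genes, 32% of those of genes not called, none of the 5 windows of lower genes and 26.5% of all windows. Single genes did not follow the medians: the higher gene Grm8 has a window with 2 CG, beside others with 10 and 33. The higher genes Gabrb2 (11, 9 and 9 CG) and Glra2 (9) had no window with 20 or more. Of the lower genes, Gabrg3 had 13 CG, Grm7 10 and 15, and Gabra3 0 in each of its windows. The higher genes Chrna6 and Grin2b had no window. Grik4 (42) and Chrna7 (35) had many CG and were not called. The relation of CG counts to the calls was not tested. Of the 46 receptor windows, 2 held CAGCTG, an E-box bound by basic helix-loop-helix factors, against 16.3% of all windows. The homeodomain motif TAATCC was in 3 of the 46 and in 7.06% of all windows, and the sequence CAGCACC, part of the site of the repressor REST, was in 3 of the 46 and in 7.14% of all windows. Both strands were searched, and none of these motifs contains another. These counts describe letters and are not binding sites.

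The libraries held 13994825 to 18391647 counts each. Ezh2 itself (ENSMUSG00000029687) stood in CPM (counts scaled to the normalized library size) at 276, 251, 255 and 220 in the labelled-cKO libraries and 235, 230, 197 and 207 in controls, each in the order of replicates 1 to 4, as for every gene hereafter. The values overlapped, and the log2 fold change of 0.21 (SE 0.07) was not called (adjusted p = 0.0701, edgeR). A count over the whole gene does not check a deletion of some exons, so directions here are those of the labels. Xist counts of 1874 and 1714 and almost no Y-linked reads marked cKO replicates 2 and 3 as female, and the other 6 libraries as male. Genes of the mitochondrial genome took 8.41% to 14.04% of control counts, with replicates 1 and 3 above 2 and 4, and 10.1% to 14.3% of labelled-cKO counts. The labels give no batch.

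Most receptor genes were at higher counts in the labelled-cKO libraries. Among the 53 tested genes there were 19 higher, 4 lower and 30 uncalled ones at a Benjamini-Hochberg adjusted p under 0.05 (edgeR quasi-likelihood test over all 15014 genes tested). Of all genes tested, 11.8% were called, 8.35% higher and 3.46% lower. The log2 fold change was above 0 in 45 of the 53, with a median of 0.33, against -0.01 for all genes tested. The called genes described here ran from log2 0.23 (Gabbr2) to 1.62 (Chrna6) among increases and from -0.34 (Gabrg3) to -0.38 (Grm7) among decreases. At least a doubling was reached by the nicotinic subunit Chrna6, the NMDA subunit Grin2b and the muscarinic receptor Chrm4, among others. No called gene fell to 0.5 times its control level or less. In these bulk samples, a change in the number of cells of a type and a change in RNA per cell cannot be told apart.

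By type of receptor, 14 of 41 channel subunits tested were higher and 3 lower, and 5 of 12 G protein-coupled receptors were higher and 1 lower. The difference between these types was not tested. The 4 labelled-cKO values lay wholly above the 4 control values in 19 receptor genes and wholly below them in 2, of which Grm7 was 1. Over all genes tested, 10.1% lay wholly above, 6.21% wholly below, and 16.3% either way. Among called genes with overlapping values were Gabra3, Gabrg3, Glra2 and Gria2, and genes without overlap that were not called were Chrnb2, Gabra5 and Grm2. Every called gene kept its direction in the 6 male libraries alone, and 15 of the 23 remained called there. Without cKO replicate 1, the higher receptor genes numbered 11 in place of 19.

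**Figure D1:**
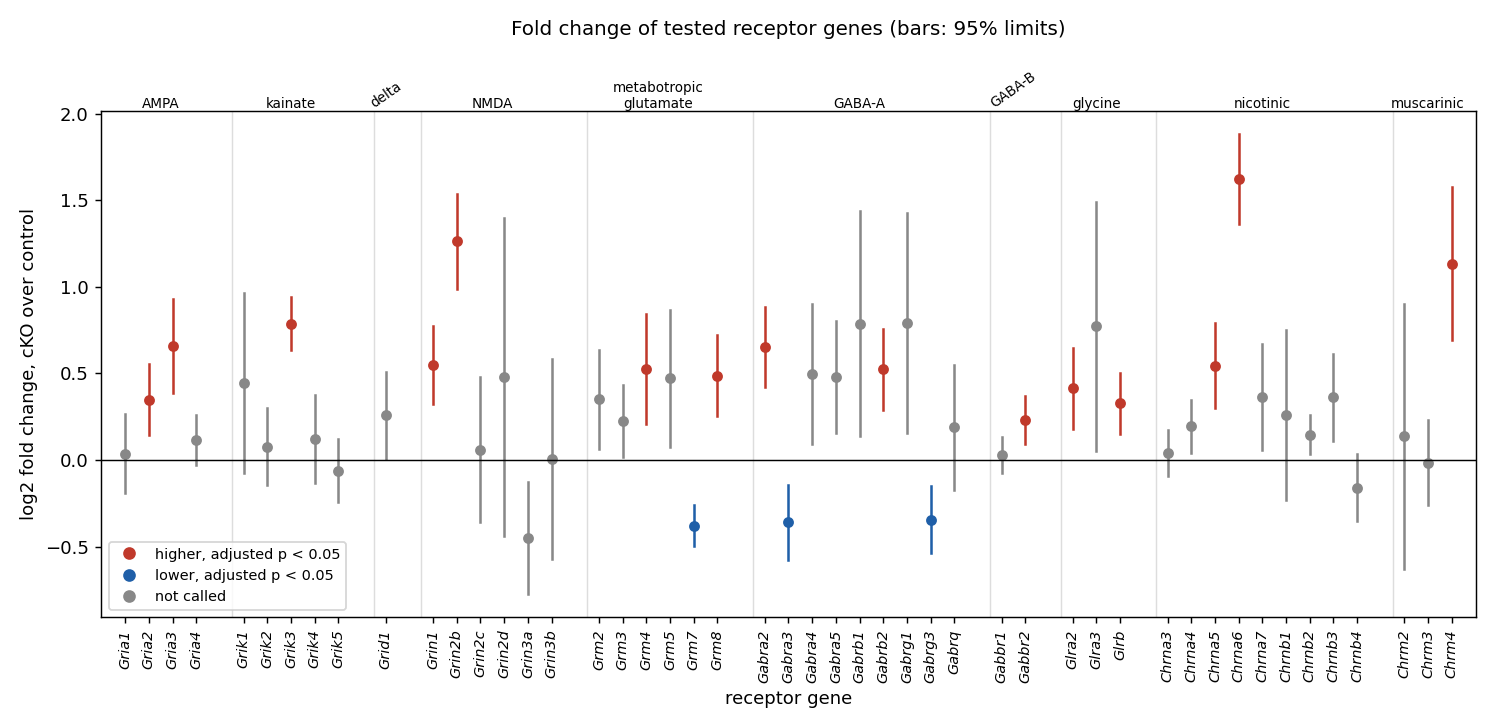
Log2 fold change of 48 tested receptor genes, labelled cKO over control, grouped by receptor family. Points are estimates, bars are 95% limits, red marks genes called higher, blue genes called lower and grey genes not called. Chrna6 stands highest at 1.62, and most points lie above 0.

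Among glutamate receptors, 8 of the 24 tested genes were higher, 2 lower and 14 not called, with a median log2 fold change of 0.30. AMPA receptors carry most fast excitation in the nervous system. Of their 4 subunit genes, Gria2 and Gria3 were higher and Gria1 and Gria4 were not called. Gria3, on the X chromosome, was at 5.80, 5.57, 4.85 and 5.13 CPM in the labelled-cKO libraries and at 3.29, 2.95, 3.86 and 3.45 CPM in controls. Each labelled-cKO value was above each control value, and the log2 fold change was 0.66 (SE 0.13, adjusted p = 0.00285). Gria2 encodes the subunit that makes AMPA channels nearly impermeable to calcium. It was at 26.5, 28.7, 24.9 and 21.6 CPM in the labelled-cKO libraries and at 23.3, 18.1, 20.5 and 18.2 CPM in controls. Its groups overlapped through cKO replicate 4 and control replicate 1, and it rose by log2 0.35 (SE 0.10, adjusted p = 0.0282). Gria4, the subunit with the highest FPKM of the 4, was at 67.6 ± 4.73 against 62.5 ± 5.05 CPM (SD, n = 4), with a log2 fold change of 0.11 (95% limits -0.03 to 0.26) and no call.

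Kainate receptors are slower or modulatory relatives of AMPA receptors, and 1 of their 5 genes was called. Grik3 (ENSMUSG00000001985, mm10 chromosome 4, 125490700 to 125714173, plus strand), a low-affinity kainate subunit, was at 36.0, 31.0, 30.04 and 31.4 CPM in the labelled-cKO libraries and at 19.8, 18.7, 17.5 and 18.5 CPM in controls. The groups were far apart, with the lowest labelled-cKO value well above the highest control value. Grik3 rose by log2 0.79 (SE 0.07, adjusted p = 3.47e-06). Its promoter stretch, printed above, is the one with the most CG. Grik5, an auxiliary high-affinity kainate subunit and the one with the highest FPKM, was at 19.9 ± 2.43 against 20.8 ± 1.13 CPM (log2 -0.06, not called). The remaining kainate genes, Grik1, Grik2 and Grik4, had log2 fold changes of 0.45, 0.08 and 0.12 and were not called.

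Delta receptors are not opened by glutamate and act as synaptic organizers. Grid1 was at 9.94 ± 1.49 against 8.36 ± 0.789 CPM and was not called (log2 0.26, adjusted p = 0.192). Without cKO replicate 3, which held its lowest labelled-cKO value, Grid1 was called higher (log2 0.36, adjusted p = 0.0457). In the other 17 alternatives Grid1 was not called.

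NMDA receptors need glutamate, a co-agonist and depolarization to open, and each holds the obligatory subunit Grin1. Of 6 tested subunit genes, Grin1 and Grin2b were higher and 4 were not called. Grin2b (ENSMUSG00000030209, chromosome 6, 135713233 to 136173511, minus strand) encodes the GluN2B subunit of immature NMDA receptors. It was at 7.85, 8.98, 6.63 and 7.11 CPM in the labelled-cKO libraries and at 3.29, 3.21, 3.30 and 2.95 CPM in controls. The controls lay close together and far below the labelled-cKO libraries. Grin2b rose 2.40-fold (log2 1.26, SE 0.13, adjusted p = 9.84e-06). Grin1 was at 10.05, 10.4, 9.38 and 10.3 CPM against 7.19, 5.698, 7.86 and 6.74 CPM. Its groups did not overlap either, and it rose by log2 0.55 (SE 0.10, adjusted p = 0.00243). Grin1 shares exonic bases with Grin1os, which was at 3.98 ± 0.350 against 2.96 ± 0.433 CPM and was not called. The strand setting of the counting is not known here, so reads of the overlap cannot be assigned to either gene. The same holds for exonic bases that Gabra4 shares with Gabrb1, Gabra5 with Gm9962 and Grin3b with Tmem259. Gria2 shares exonic bases with Gm25749 on the same strand. Grin3a, a subunit that lowers calcium flow, had a log2 fold change of -0.45 and was not called (adjusted p = 0.0737), but was called lower in 3 alternatives, among them without cKO replicate 2 (log2 -0.55, adjusted p = 0.0362) and without control replicate 4 (log2 -0.54, adjusted p = 0.0411). Grin3a was singled out after its values were seen.

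Metabotropic glutamate receptors are G protein-coupled, and 7 of them were in the table. Grm7 (ENSMUSG00000056755, chromosome 6, 110645581 to 111567230, plus strand) is a presynaptic receptor of group III, which lowers cyclic AMP, and had the highest FPKM of the 7. It was at 33.0, 31.0, 29.8 and 32.7 CPM in the labelled-cKO libraries and at 41.9, 41.5, 39.5 and 41.8 CPM in controls. The values within each group were close and the groups were well separated. Grm7 fell by 0.38 on the log2 scale (SE 0.05, adjusted p = 0.000277). Grm7 shares exonic bases with Gm20387, which was at 2.09 ± 0.312 against 2.53 ± 0.119 CPM and was not called. The group III members Grm8 and Grm4 moved the other way. Grm8 was at 11.6, 9.26, 10.7 and 10.4 CPM against 8.69, 7.53, 6.24 and 7.57 CPM. Its groups did not overlap, and it rose by log2 0.49 (SE 0.11, adjusted p = 0.00813).

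Grm4, at lower counts, was at 3.22, 2.99, 2.95 and 3.03 CPM in the labelled-cKO libraries and at 2.32, 1.83, 2.10 and 2.23 CPM in controls. The groups did not overlap, and the log2 fold change was 0.52 (SE 0.15, adjusted p = 0.0316). Grm5, a group I receptor that signals through calcium release, had a log2 fold change of 0.47 and was not called. The group II receptors Grm2 and Grm3 were not called. Grm2 was at 4.11 ± 0.438 against 3.21 ± 0.237 CPM with no overlap (log2 0.35, adjusted p = 0.113), and Grm3 at 14.6 ± 0.819 against 12.5 ± 1.70 CPM (log2 0.23, adjusted p = 0.164).

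Some glutamate receptor calls were lost when any 1 of several libraries was left out, in fits that test fewer samples. The call of Gria2 was lost when any of cKO replicates 1, 2 or 3 or control replicates 2, 3 or 4 was left out, with adjusted p from 0.0548 to 0.0966, and in male libraries alone (log2 0.27, adjusted p = 0.208). The call of Grm4 was lost without any of the 4 labelled-cKO replicates or control replicates 2, 3 or 4 (adjusted p 0.0507 to 0.0961), in DESeq2 (0.145) and in male libraries alone (0.117). Without cKO replicate 1, and without control replicate 4, 5 glutamate receptor genes were called higher in place of 8.

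**Figure D2:**
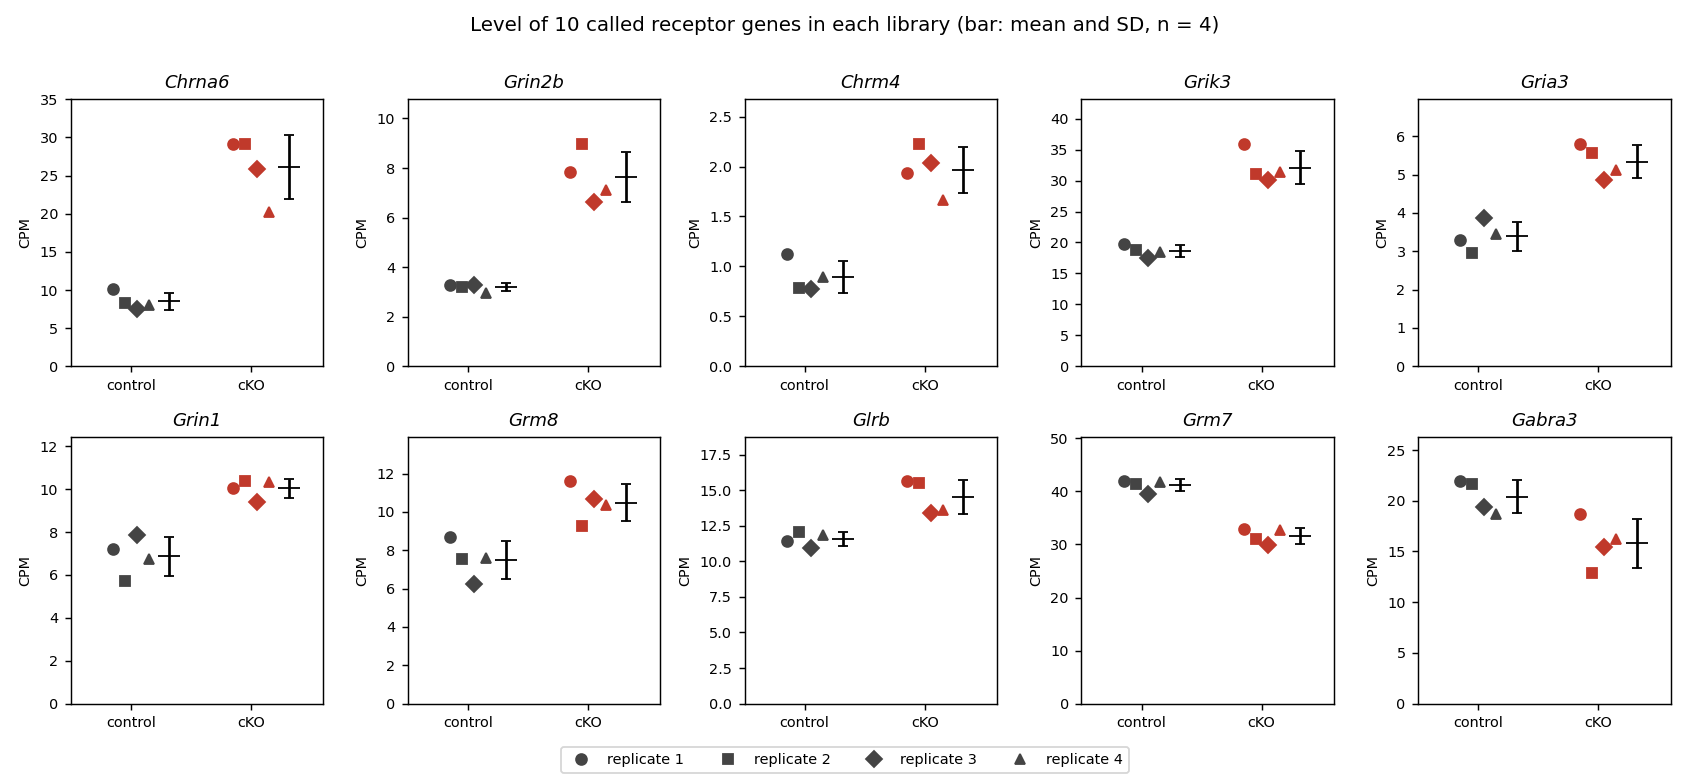
CPM of 10 called receptor genes in each library, 1 panel per gene with its axis from 0. Grey symbols are controls, red symbols labelled-cKO libraries, the symbol shape is the replicate number, and the black bar is the mean with its SD (n = 4). The groups are apart in each panel except that of Gabra3, where cKO replicate 1 reaches the lowest control value.

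Among GABA receptors, 6 of 14 tested genes were higher, 2 lower and 6 not called, with a median log2 fold change of 0.40. GABA-A receptors are chloride channels, usually of alpha, beta and gamma subunits, and the alpha subunit sets their kinetics and their response to benzodiazepines. Gabra2, an alpha subunit frequent in the embryonic brain, was at 10.3, 10.8, 10.8 and 8.96 CPM against 7.71, 6.09, 5.89 and 6.29 CPM. Its groups did not overlap, and it rose by log2 0.65 (SE 0.11, adjusted p = 0.000829).

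Gabra3, an X-linked alpha subunit typical of immature neurons, went the other way. It was at 18.7, 12.9, 15.4 and 16.2 CPM in the labelled-cKO libraries and at 21.9, 21.7, 19.4 and 18.7 CPM in controls. cKO replicate 1 met the lowest control value, and the female cKO replicate 2 was the lowest of all. Gabra3 fell by 0.36 on the log2 scale (SE 0.10, adjusted p = 0.0311). Gabra5, best known for receptors outside synapses, was at 3.33 ± 0.394 against 2.40 ± 0.241 CPM with no overlap and was not called (log2 0.48, adjusted p = 0.055). It was called in 3 alternatives, among them without cKO replicate 3 (log2 0.56, adjusted p = 0.0379), and not in the other 15.

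Beta and gamma subunits complete the channel. Gabrb2, a beta subunit, was at 19.7, 19.8, 15.2 and 15.3 CPM against 13.9, 11.9, 12.2 and 10.8 CPM, without overlap, and rose by log2 0.52 (SE 0.11, adjusted p = 0.0049). Gabrg3, a gamma subunit, fell by 0.34 on the log2 scale (SE 0.09, adjusted p = 0.0222), from 19.0, 19.9, 18.2 and 16.4 CPM in controls to 14.3, 13.6, 13.1 and 16.7 CPM. Its groups overlapped through the replicates numbered 4.

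GABA-B receptors are G protein-coupled and need both subunits, Gabbr1 to bind GABA and Gabbr2 to reach the surface and signal. Gabbr2 was at 54.4, 52.1, 47.8 and 54.8 CPM in the labelled-cKO libraries and at 46.5, 41.6, 42.9 and 47.1 CPM in controls. The lowest labelled-cKO value was close to the highest control value without crossing it, and Gabbr2 rose by log2 0.23 (SE 0.06, adjusted p = 0.0277). Gabbr1 was at 195 ± 5.71 against 191 ± 11.4 CPM and was not called (log2 0.03, 95% limits -0.07 to 0.13).

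The calls of Gabra2 and Gabrb2 were kept in each of the 18 alternative settings, and those of Gabra3, Gabrg3 and Gabbr2 were not. Gabra3 lost its call without cKO replicate 2 or 3 or control replicate 1 or 2 (adjusted p 0.0748 to 0.0874) and in male libraries alone (log2 -0.22, adjusted p = 0.268). Gabrg3 lost it without cKO replicate 1, 2 or 3 or control replicate 1 or 2 (0.0515 to 0.0743) and in male libraries alone (log2 -0.24, adjusted p = 0.237). Gabbr2 lost it without cKO replicate 1 or 4 or control replicate 2 or 3 (0.0501 to 0.107). Without cKO replicate 1, and without control replicate 2, 3 GABA receptor genes were called higher in place of 6.

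Glycine receptors are chloride channels, and in the retina they serve many amacrine cells. Of the 3 genes tested, 2 were higher, and the log2 fold changes of all 3 were above 0, with a median of 0.41. Glra2, the X-linked alpha subunit of embryonic receptors, was at 18.3, 18.7, 16.2 and 13.2 CPM in the labelled-cKO libraries and at 12.3, 11.1, 12.4 and 13.9 CPM in controls. cKO replicate 4 lay below control replicate 4, and Glra2 rose by log2 0.41 (SE 0.11, adjusted p = 0.0228). Glrb, the beta subunit that ties the receptor to the scaffold gephyrin, was at 15.6, 15.5, 13.4 and 13.6 CPM against 11.46, 12.1, 10.9 and 11.9 CPM. Its groups did not overlap, and it rose by log2 0.33 (SE 0.08, adjusted p = 0.0171). Neither call was kept in male libraries alone, where Glra2 had log2 0.34 (adjusted p = 0.174) and Glrb log2 0.34 (adjusted p = 0.0676). Glra2 also lost it without cKO replicate 1 or 2 or control replicate 1, 2 or 3 (0.0508 to 0.0762), and Glrb without cKO replicate 1 or 2 or control replicate 3 (0.0509 to 0.0550). Glra3, an alpha subunit at low counts, was at 0.699 to 1.51 CPM in the labelled-cKO libraries and 0.351 to 0.835 CPM in controls and was not called (log2 0.77, adjusted p = 0.173).

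Acetylcholine receptors gave the largest increase of all the receptor genes and the lowest share of calls, with 3 of 12 genes higher, none lower and a median log2 fold change of 0.23. At an unadjusted p under 0.05, no acetylcholine receptor gene was lower. Chrna6 (ENSMUSG00000031491, chromosome 8, 27403212 to 27413944, minus strand) encodes the alpha6 nicotinic subunit, which is known from retinal ganglion cells and dopamine neurons. It was at 29.2, 29.1, 25.9 and 20.3 CPM in the labelled-cKO libraries and at 10.1, 8.32, 7.57 and 8.02 CPM in controls. The groups were far apart, with cKO replicate 4 the lowest of its group. Chrna6 rose 3.08-fold (log2 1.62, SE 0.12, adjusted p = 5.7e-07).

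Chrna5, an accessory nicotinic subunit, was at 8.81, 7.87, 7.67 and 7.91 CPM against 6.66, 5.24, 5.54 and 4.85 CPM. Its groups did not overlap, and it rose by log2 0.55 (SE 0.11, adjusted p = 0.00488). The most abundant nicotinic genes were not called. Chrna3, the alpha subunit of the early retinal waves' receptors, was at 115 ± 11.51 against 112 ± 3.82 CPM (log2 0.04, 95% limits -0.09 to 0.17). Chrna4 was at 103 ± 8.82 against 90.3 ± 8.73 CPM (log2 0.19, adjusted p = 0.103). Chrnb2, the beta subunit needed for those waves, was at 90.9 ± 3.69 against 82.1 ± 4.48 CPM without overlap (log2 0.15, adjusted p = 0.0924). Chrnb2 shares exonic bases with Adar, which was not called.

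Chrnb3, an accessory subunit often found with alpha6, was at 22.2, 23.8, 17.8 and 17.6 CPM in the labelled-cKO libraries and at 19.1, 16.6, 13.5 and 14.4 CPM in controls. Its groups overlapped through control replicate 1, and it was not called (log2 0.36, SE 0.12, adjusted p = 0.0631). It was called higher in 5 alternatives, among them DESeq2 (adjusted p = 0.0394), without cKO replicate 4 (log2 0.43, 0.0337) and without control replicate 1 (log2 0.46, 0.0227).

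Chrm4 (ENSMUSG00000040495, chromosome 2, 91927249 to 91928688, plus strand), a muscarinic receptor that lowers cyclic AMP, was at 1.93, 2.23, 2.03 and 1.67 CPM in the labelled-cKO libraries and at 1.12, 0.786, 0.772 and 0.891 CPM in controls. The counts were low and the groups apart. Chrm4 rose 2.19-fold (log2 1.13, SE 0.21, adjusted p = 0.00181). Its RefSeq start, behind the printed stretch, lies upstream of the interval that GENCODE gives for the gene. Chrm3, a muscarinic receptor that releases calcium, was at 6.36 ± 0.555 against 6.42 ± 0.723 CPM (log2 -0.01, 95% limits -0.26 to 0.23, not called). The lowest count of any called receptor gene in any library was 11.

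The 30 receptor genes that were not called had log2 fold changes from -0.45 to 0.79, of which 26 were above 0. At an unadjusted p under 0.05 there were 14 of them, and the lowest adjusted p was 0.055. Of the tested genes, 5 (Chrm2, Gabrb1, Gabrg1, Glra3 and Grin2d) had a group in which fewer than 4 libraries reached the level of 0.668 CPM that the filter uses, and none of these 5 was called. Apart from the 35 genes named by rule, 20 receptor genes remained, and their mean FPKM over the 8 libraries ran from 0.0882 to 6.48. FPKM, the authors' measure of reads per length of gene, is used here to compare levels between genes. In controls the mean FPKM of the 55 receptor genes ran from 0.0865 to 35.6 (Chrna3), with a median of 1.36.

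Within several receptor classes the order of subunits by FPKM changed. In controls Gabra3 made up 53.0% of the summed FPKM of the 5 alpha subunits of GABA-A receptors (50.7% to 56.9% over libraries) and Gabra2 27.6% (26.2% to 29.2%). In the labelled-cKO libraries Gabra3 made up 35.7% (29.8% to 38.8%) and Gabra2 37.9% (34.95% to 40.9%), so that the ranges of these subunits overlapped there and not in controls. These shares follow from the levels given above and were not tested apart from them.

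Among 7 NMDA subunits, Grin2b went from 13.9% (12.2% to 15.2%) of the summed FPKM to 25.8% (22.5% to 30.1%), next to Grin1 at 28.6%. Grin3a went from 19.8% (15.3% to 23.0%) to 11.2% (9.19% to 13.7%). Among 5 nicotinic alpha subunits, Chrna6 went from 4.82% to 12.6% and Chrna3 from 59.2% to 51.3%, and Chrna3 was first in each library. Among metabotropic glutamate receptors, Grm7 went from 52.1% (49.7% to 55.9%) to 39.5% (37.9% to 41.8%) and stayed first. Grik3 went from 18.4% to 27.7% of the kainate sum and passed Grik2, at 22.4% in controls and 20.8% in labelled-cKO libraries. In the AMPA class Gria4 made up 63.0% and 61.0% of the sum, with overlapping ranges. Gria2 went from 17.8% (16.9% to 18.4%) to 20.2% (18.5% to 21.4%) and Gria3 from 2.13% (1.84% to 2.41%) to 3.003% (2.85% to 3.14%), neither with overlap between groups. The gamma subunit Gabrg3 went from 12.4% to 8.26% of the gamma sum.

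**Figure D3:**
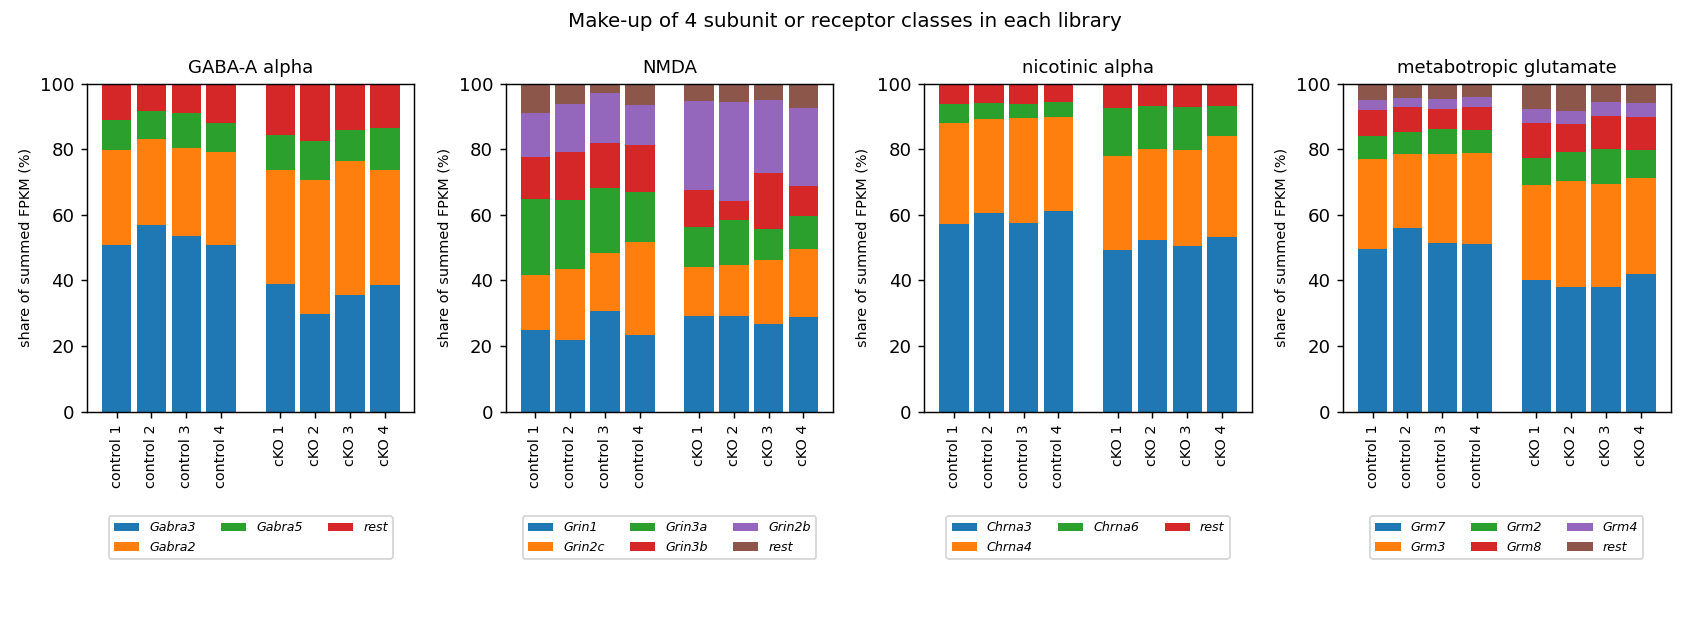
Share of summed FPKM (percent, stacked to 100) taken by genes of 4 classes in each library, with the 2 genes of lowest control FPKM in each class joined as the rest, controls to the left and labelled-cKO libraries to the right of each panel. Gabra3 shrinks from a mean of 53.0% to 35.7%, Grin2b grows from 13.9% to 25.8%, Chrna6 grows from 4.82% to 12.6% and Grm7 shrinks from 52.1% to 39.5%.

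Many of these genes are neighbours, since GABA-A and nicotinic genes arose by duplication. Within 1000000 bases of each other lay 7 groups of tested receptor genes. On chromosome 3, Gria2 (80681450 to 80802835) and Glrb (80843599 to 80913660), receptors of different transmitters, were both higher, at log2 0.35 and 0.33. On chromosome 5, of Gabrg1, Gabra2, Gabra4 and Gabrb1, only Gabra2 was called, while their log2 fold changes ran from 0.50 to 0.79. The groups on chromosomes 7 and X were mixed. On chromosome 7, Gabrg3 fell and Gabra5 was not called (log2 0.48). On chromosome X, Gabra3 fell and Gabrq was not called (log2 0.19).

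In the nicotinic group on chromosome 9, Chrna5 rose while Chrna3, 2331 bases away, and Chrnb4 were not called (log2 0.04 and -0.16). On chromosome 8, Chrna6 lies 3481 bases from Chrnb3 on the opposite strand. The ratio of Chrnb3 to Chrna6 counts was 1.79 to 2 in the 4 controls and 0.689 to 0.869 in the 4 labelled-cKO libraries, without overlap. In log2 the ratio differed by -1.25 between groups (exact two-sided permutation test over 70 assignments, p = 0.0286, the smallest it can give). Over 12 pairs of adjacent genes the Benjamini-Hochberg adjusted p of this pair was 0.0686, and no pair was under 0.05. With p bounded at 0.0286, no pair could pass this adjustment unless several reached the bound together. The adjusted values therefore decide little about single pairs. The same p was reached by Gabrg3 with Gabra5 and by Chrna5 with Chrna3, among others.

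**Figure D4:**
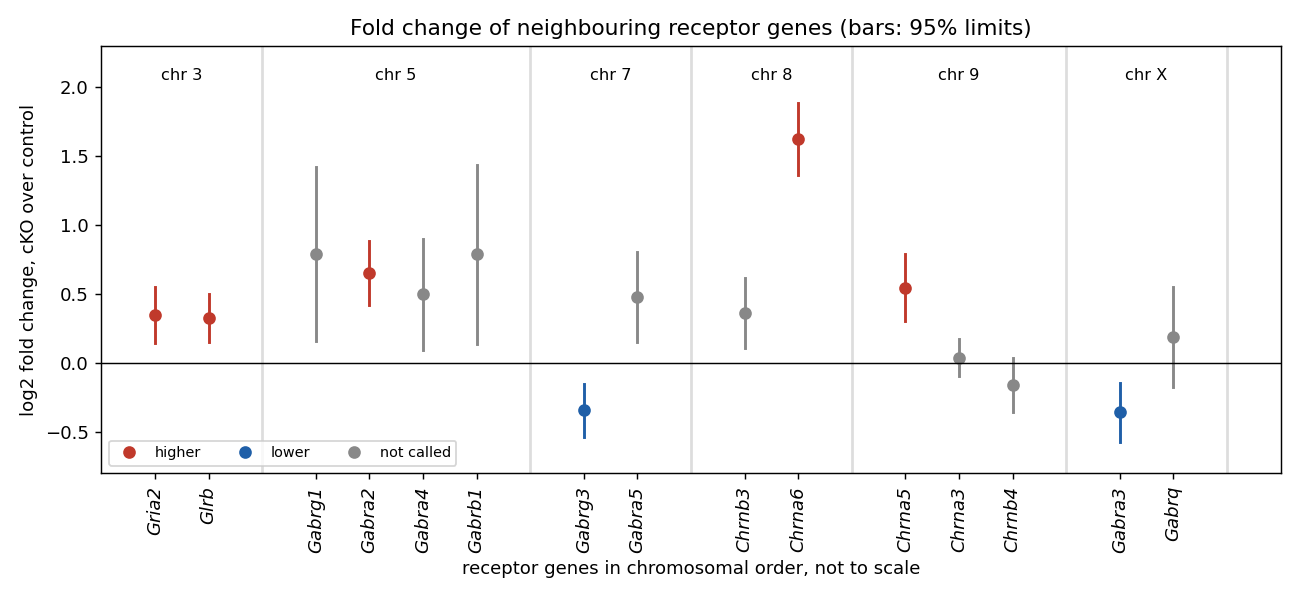
Log2 fold change (points, with 95% limits) of receptor genes that neighbour each other, in 6 groups ordered along their chromosomes; red is called higher, blue lower and grey not called. Gria2 and Glrb on chromosome 3 are both called higher, and the groups on chromosomes 7, 9 and X hold genes on both sides of 0.

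Genes that work beside the receptors were counted from lists. Of 9 tested genes for glutamate release and uptake, 6 were higher, 1 lower and 2 not called, with a median log2 fold change of 0.41. The summed level of this list was not higher, at 1167 to 1218 CPM in labelled-cKO libraries and 1187 to 1227 CPM in controls. The vesicular glutamate transporter gene Slc17a7 was at 3.59 ± 0.267 against 1.15 ± 0.0376 CPM (SD, n = 4) and rose by log2 1.63 (SE 0.16, adjusted p = 7.53e-06). The uptake transporter genes Slc1a1 and Slc1a2 rose by log2 0.75 and 0.49, and the lower gene was glutamine synthetase, Glul, at -0.18. Of 8 tested genes for GABA and glycine synthesis, release and uptake, 3 were higher, none was lower and the median was 0.37. Gad1, which makes GABA, was at 3.81 ± 0.527 against 1.80 ± 0.5001 CPM and rose by log2 1.08 (SE 0.20, adjusted p = 0.00187). The GABA uptake transporter Slc6a11 rose by log2 0.78. The 3 tested genes for acetylcholine synthesis, release and breakdown (Slc5a7, Ache and Bche) and 4 chloride transporters, among them Slc12a2 and Slc12a5, which set the direction of GABA and glycine currents, gave no call, with medians of -0.02 and -0.07.

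Of 25 auxiliary subunits and chaperones, 4 were higher, 1 lower and 20 not called, with a median log2 fold change of 0.17. The AMPA receptor partner Cacng5 rose by log2 0.58 (adjusted p = 0.000544), the GABA-B receptor partner Kctd12 by 0.50 (adjusted p = 0.000605), and the nicotinic receptor chaperone Ric3 by 0.24 (adjusted p = 0.012). Ric3 lost its call in 3 alternatives, without control replicate 2 (log2 0.22), in male libraries alone (0.24) and with sex as a covariate (0.24), with an adjusted p of at most 0.0628 over all alternatives. The fourth was Shisa6 at log2 0.81 (adjusted p = 0.0488), and the lower gene was Kctd8 at -0.23. Of 29 tested scaffold and clustering genes, 9 were higher, 1 (Nlgn1, -0.28) was lower and the median was 0.11. The metabotropic receptor scaffold Homer2 rose by log2 0.63, the inhibitory synapse protein Iqsec3 by 0.74 and the AMPA receptor clustering pentraxin Nptx2 by 0.89. Glul, Shisa6, Kctd8 and Nlgn1 are named here after their values were seen.

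Marker genes of cell types moved between the same groups. Summed levels of 14 amacrine markers were 1971 to 2099 CPM in the labelled-cKO libraries and 1710 to 1888 in controls, with 5 higher and 1 lower, and those of 10 photoreceptor markers 1094 to 1204 against 993 to 1051 CPM, with 7 higher. The 12 progenitor markers summed to 6586 to 7259 against 7974 to 8444 CPM, with 5 lower. The 16 ganglion cell markers summed to 2956 to 3048 against 3041 to 3509 CPM, with 2 higher and 5 lower, and the 7 horizontal cell markers to 371 to 426 against 351 to 403 CPM, with 3 higher and 2 lower. The 6 bipolar markers, some shared with progenitors, summed to 585 to 642 against 686 to 716 CPM, with 2 higher and 2 lower. The 10 Müller glia markers summed to 2385 to 2429 against 2418 to 2616 CPM, with 5 higher and 1 lower. The 5 markers of astrocytes and the oligodendrocyte lineage summed to 98.4 to 109 against 84.9 to 101 CPM, with 2 higher. Markers of the neural retina were thus detected in all 8 libraries. The part of cell makeup in the receptor results was not tested.

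Markers of cells outside the neural retina were mostly low. The sums below take in every listed gene among the 16096, also those with too few reads to be tested. For mesenchyme these were 10 genes, for skeletal muscle 12, for endothelium 5 and for lens 10. Microglia markers (8) summed to 45.9 to 54.7 against 32.9 to 41.8 CPM, with 4 higher. Mesenchyme markers (9 tested) summed to 30.6 to 83.2 against 24.8 to 52.7 CPM, with 4 higher, and skeletal muscle markers (8 tested) to 19.7 to 78.2 against 35.3 to 46.4 CPM, with 1 higher. The muscle genes Myod1, Myog, Myf5, Myf6 and Musk were not among the 16096 genes. Endothelial markers summed to 271 to 310 against 322 to 352 CPM, with 1 higher and 1 lower of 4 tested. Lens markers (2 tested) summed to 3.27 to 12.3 against 2.56 to 17.3 CPM, pigment epithelium markers to 11.98 to 25.2 against 11.6 to 37.7 CPM, and erythroid markers to 91.3 to 871 against 160 to 1289 CPM, none of them with a call. Markers of peripheral autonomic neurons and neural crest, which also use nicotinic receptors, summed to 5.96 to 8.15 against 5.19 to 5.77 CPM, with 1 (Prph) of 3 tested higher. The part of these cells in the receptor results was not tested.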

How the data were processed

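Libraries were made from 1 μg of column-purified total RNA, per the labels' protocols; the sources used here do not give their strand. Novoalign 2.08.01, mm10 and DESeq2 are named in the submitters' processing notes. The authors deposited raw counts for each gene and library. The authors' FPKM values were used only to compare levels between genes and to give shares within receptor classes in each library. The deposited log2 ratios of the authors' deposited table have the sign found here in 53 of 53 tested receptor genes; a deposited score column was not used. Genes were tested with edgeR 4.0.16 (R 4.3.3): TMM, filterByExpr (minimum count 10; 15014 of 16096 genes, 99.9% of counts), glmQLFit, glmQLFTest and Benjamini-Hochberg adjustment over all tested genes, 4 against 4 libraries without covariates. Standard errors and 95% limits come from the same fit. The script was tested on simulated data. Receptor symbols are those the authors deposited. Coordinates, exon overlaps and the names of overlapping genes are from GENCODE M21, matched by identifier for all 55 genes.

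Named genes are all called receptor genes, the 2 with the highest mean FPKM in each family, those whose groups do not overlap, those called in at least 4 alternatives but not in the test above, and 3 called genes of smallest p per pathway list; certain genes enter the counts and are not reported here by name. The members and all lists were chosen with earlier results of these data known. Xist and Y-linked genes gave the sex of each library. Libraries of 1 group differed beyond counting noise, which does not exclude separate preparations of 1 sample. Each library was counted as 1 sample, as labelled. The least different controls were replicates 1 and 3 (chi-square per degree of freedom 4.90) and 2 and 4 (9.66), against 18.5 to 25.2 for the other control pairs. Whether the 4 controls are independent is therefore not settled. Alternatives were DESeq2 1.42.0, other normalizations and filters, sex, mitochondrial genes, replicate number as a block, each library left out, and, chosen after seeing the data, the library richest in lens counts left out of each group.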

Additional observations from a re-analysis of the deposited data

Results flagged for a closer look

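In 110 groups of 4 libraries (each receptor gene in each genotype), 2 values stood apart by Dixon's test at its 95% critical value; chance alone marks about 1 in 20 groups. The muscarinic receptor gene Chrm2 was at 1.88 CPM in cKO replicate 2 and between 0.680 and 0.853 CPM in the other labelled-cKO libraries. The kainate receptor gene Grik1 was at 1.05 CPM in cKO replicate 4 and between 1.45 and 1.53 CPM in the others. Neither gene was called.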

How the results depend on the processing

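Of the 23 called receptor genes, 13 were called the same way in each of the 18 alternatives that tested them, and none of the 47 named receptor and pathway genes reversed. In male libraries alone, and with sex as a covariate, 800 and 795 genes were higher (1253 in the test reported) and 255 and 246 lower (520); in both, 2 receptor genes were lower (4), 0 GABA receptor genes lower (2) and 0 glycine receptor genes higher (2), and 0 auxiliary and 0 glutamate release genes were lower (1 each), while sex as a covariate left 2 auxiliary genes higher (4). Library size alone gave 273 lower genes, 1 lower GABA receptor gene, 0 lower auxiliary and glutamate release genes, and 1 higher acetylcholine synthesis gene (0). A minimum count of 30 gave 0 lower auxiliary genes. Without the library richest in lens counts in each group, 323 genes were lower, 2 receptor genes lower, 3 GABA receptor genes higher (6) and 0 lower, 0 glycine receptor genes higher, and 0 auxiliary and glutamate release genes lower. The cause of these differences was not tested.

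With 1 library left out, counts ran from 329 to 667 for all lower genes, 11 to 19 for higher and 2 to 5 for lower receptor genes, 5 to 8 for higher glutamate, 3 to 7 for higher and 0 to 2 for lower GABA and 0 to 2 for higher glycine receptor genes, 2 to 5 for higher and 0 to 2 for lower auxiliary genes, 0 to 1 for lower glutamate release genes, and 0 to 1 for higher acetylcholine synthesis and chloride transporter genes. Such fits test fewer samples. All lower genes numbered 329 without control replicate 3, and lower receptor genes 2 without cKO replicate 3 or control replicate 1 or 2.

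Deviations of same-numbered libraries correlated at r = 0.22, -0.03, -0.03 and 0.26 across genes. Of the 4 labelled-cKO libraries, 2 (replicates 1 and 4) correlated best with their own number. These mixed values do not settle whether the numbers pair samples. With the replicate block 1179 genes were higher and 497 lower, 18 and 5 receptor genes were higher and lower, and 0 glutamate release genes were lower; Grin3a was called lower there with all 8 libraries (log2 -0.46, adjusted p = 0.0329). Leaving out libraries over 10 times the median lens level was not run, since no library met it.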
